A study of Mus musculus with 2 samples.

Results

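Genes that license replication origins and build the replication fork were followed in epithelial cells of mouse skin tumours that had been sorted by flow cytometry for CD34. Alpha6-integrin and Epcam were stained as epithelial markers, and CD45, CD31 and CD140a, which mark leukocytes, endothelium and fibroblasts, shared a further dye. The set was a list of 49 named genes, and each gene was read by the probe sets that the platform annotation maps to it alone. Of the 49, 48 had at least 1 such probe set, 105 probe sets in all, and the 48 lay above background on both arrays, out of 18194 genes with a probe set of their own and 12199 measured genes. Chaf1a, which encodes a chromatin assembly factor subunit, was not analysed here. Signals were compared between 2 Affymetrix Mouse Genome 430 2.0 arrays, 1 for the wild-type genotype and 1, called the VEGF array after its label, for K14CreER:Rosa-VEGF-164. In the latter a VEGF-164 transgene at the Rosa locus is placed under Cre recombinase driven by the keratin 14 promoter, which is active in the basal layer of the epidermis. The sources used here do not give how and when Cre was induced, the strain, or whether tumours or animals were pooled. Tumours of both genotypes had been raised in the same way: DMBA, a mutagenic hydrocarbon, was given at postnatal days 23, 25 and 27, TPA, a phorbol ester that promotes growth, was given repeatedly for some weeks, and DMBA was given again at 7 weeks of age. With 1 array per genotype there was no replicate, no test and no p-value, and every value below describes these 2 arrays.

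Before S phase, the origin recognition complex, Cdc6 and Cdt1 load the ring-shaped MCM helicase onto origins, a step called licensing, which geminin restrains. The kinase Cdc7 with its partner Dbf4, together with Cdc45, the GINS complex and Mcm10, then turns the loaded helicase into a moving fork, where primase and the polymerases copy both strands. Most of these genes are transcribed around the entry into S phase under E2F transcription factors, so their messages are widely used as a readout of how many cells in a tissue are cycling. In the basal epidermis and in squamous tumours the cycling cells are mainly basal keratinocytes.

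Because the members share this control in textbook accounts, the promoter sequences were examined first. RefSeq promoters of GRCm38.p6 were matched by symbol for 41 of the 49 genes, with 49 promoter entries. The E2F word, taken as TTTCCCGC, TTTCGCGC, TTTGCCGC or TTTGGCGC on either strand in the 250 bases before the start, was present in 9 of the 49 entries (18.4%), against 611 of 32851 promoters in all (1.86%). Among the promoters with a G+C content between the 10th and 90th percentile of the members' promoters the share was 2.26%. The median G+C of that band was 54.8%, below the 61.2% of member promoters, so it matches them only loosely. The 9 stretches below show the E2F word nearest the start of each gene in capitals with its flanks, in the 5′ to 3′ direction of the gene.
Cdc6 (chr11:98908002-98908031, + strand): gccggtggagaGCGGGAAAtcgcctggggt
Gins3 (chr8:95633507-95633536, + strand): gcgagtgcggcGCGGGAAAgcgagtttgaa
Mcm5 (chr8:75109349-75109378, + strand): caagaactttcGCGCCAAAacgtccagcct
Mcm6 (chr1:128359734-128359763, - strand): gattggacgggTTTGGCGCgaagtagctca
Mcm7 (chr5:138172030-138172059, - strand): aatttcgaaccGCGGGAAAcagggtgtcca
Orc1 (chr4:108579416-108579445, + strand): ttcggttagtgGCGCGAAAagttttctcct
Pola1 (chrX:93632275-93632304, - strand): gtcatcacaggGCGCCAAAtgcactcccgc
Rfc3 (chr5:151651209-151651229, - strand): acgtcgcacgcTTTCGCGCtc
Uhrf1 (chr17:56304117-56304146, + strand): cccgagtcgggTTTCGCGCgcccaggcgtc

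The 9 genes with an E2F word had a median log2 ratio of 0.61 and included members on both sides of 0: Orc1 (0.84), Mcm6 (0.81), Cdc6 (0.68) and Pola1 (0.67) were the highest, and Gins3 (-0.86) was the lowest of all 48 members. The 31 measured members with a promoter entry but no E2F word had a median of 0.47. The CCAAT box, the word CCAAT on either strand, was in 55.1% of member promoter entries and 33.8% of all promoters. The GC box GGGCGG was in 61.2% against 32.7%. Member promoters were richer in G+C (median 61.2%, against 52.4% for all promoters), and the shares of the CCAAT and GC boxes were not matched for it. The cell cycle homology region of mitotic promoters, TTTGAA or TTCGAA, was in 16.3% against 17.1%. None of these words contains another, although neighbouring matches can share bases, and a match is a description of letters only. The next 5 sequences are the 120 bases before the start of the 3 members with the highest ratios and of the 2 with the lowest, among genes with an entry. Capitals mark E2F words and CCAAT boxes on either strand.
Rrm1 (chr7:102441575-102441694, + strand): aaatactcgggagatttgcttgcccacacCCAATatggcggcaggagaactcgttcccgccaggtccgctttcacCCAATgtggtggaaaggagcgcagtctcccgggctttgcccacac
Timeless (chr10:128237946-128238065, + strand): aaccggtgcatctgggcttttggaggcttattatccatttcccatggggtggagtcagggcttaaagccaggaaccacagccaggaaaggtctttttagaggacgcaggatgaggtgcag
Orc6 (chr8:85299512-85299631, + strand): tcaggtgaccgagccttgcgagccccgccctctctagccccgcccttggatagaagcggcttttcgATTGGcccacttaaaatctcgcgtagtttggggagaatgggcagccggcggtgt
Pold1 (chr7:44548816-44548935, - strand): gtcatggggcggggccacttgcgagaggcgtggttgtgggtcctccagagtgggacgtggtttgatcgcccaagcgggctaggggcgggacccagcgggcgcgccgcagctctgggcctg
Gins3 (chr8:95633439-95633558, + strand): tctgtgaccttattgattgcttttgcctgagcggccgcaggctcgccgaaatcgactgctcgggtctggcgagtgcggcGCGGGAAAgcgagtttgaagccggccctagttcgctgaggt

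None of the 3 highest members held an E2F word in the window of 250 bases. Rrm1 held 2 CCAAT boxes and Orc6 held 1, read on the opposite strand. Of the 2 lowest, Gins3 held 1 E2F word, and 2 CCAAT boxes further from the start than the bases shown, and Pold1 held neither.

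Several measures of the arrays as a whole bear on these ratios. The deposited signals have a common scale, with a 2% trimmed mean of 100.04 on both arrays, but the bacterial RNA spike-ins, mixed into 100 ng of total RNA per sample before amplification, read lower on the VEGF array in 24 of 24 probe sets (median log2 ratio -0.90, from -1.20 to -0.67). Hybridisation controls were lower in 18 of 18 (median -0.50). The ratio of 3′ to 5′ signal, a guide to RNA integrity, was 1.15 (wild-type) and 0.91 (VEGF) for Gapdh, and 2.01 and 1.45 for actin. The ratio went the other way for the transferrin receptor (0.52 and 0.86) and pyruvate carboxylase controls (1.36 and 2.52), which are dim, with signals between 13.0 and 41.6. Vegfa read 804 (wild-type) and 397 (VEGF), and whether its probe sets read the transgene is not known, so the label was not checked by it. The basal keratinocyte and sort markers were above background on both arrays in 9 of 9, with a summed signal of 33538 (wild-type) and 29049 (VEGF). Krt15 (2806 and 999), Trp63 (2706 and 1587) and Itga6 (3952 and 2421) read lower on the VEGF array. Krt5 (8352 and 7875) and Krt14 (8990 and 8571) were slightly lower there. Cd34 (430 and 751), Epcam (1597 and 1905), Itgb4 (856 and 997) and Col17a1 (3849 and 3943) were higher. Of markers of other cells, 4 of 9 leukocyte genes lay above background on both arrays, with a summed signal of 242 (wild-type) and 219 (VEGF), and Cd3e, Cd3g, Cd79a and Itgam lay below it on both. The same held for 2 of 7 endothelial genes (summed 100.2 and 134, with Tek, Tie1 and Vwf below background), 7 of 8 fibroblast genes (1214 and 2702, with Pdgfra above background only on the VEGF array), 4 of 6 melanocyte genes (391 and 188, with Tyr below background) and 2 of 5 muscle genes (1750.5 and 823, with Myh2 below background). Most of the fibroblast sum came from Col1a2 (324 and 942) and Col3a1 (489.9 and 1235). Col1a1 (135 and 236), Lum (68.7 and 122) and Pdgfra (9.86 and 34.7) were also higher on the VEGF array. Thy1 (58.1 and 25.1), Dcn (91.3 and 72.3) and Pdgfrb (36.8 and 34.9) read lower there. Acta2 (1621 and 755) made up most of the muscle sum. Acta1 read 77.2 and 37.5, Des 32.5 and 5.39, and Myh11 18.1 and 19.2. No marker gene with a probe set was listed at 0. The part of the spike-ins, RNA integrity and other cells in the results below was not tested.

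Replication genes stood modestly higher on the VEGF array. The log2 ratio, always the VEGF array over the wild-type array and taken from the gene's brightest probe set, was above 0 for 38 of 48 members, against 47.1% of the 12199 measured genes and 54.7% of the 7099 genes within the members' range of signal. The median ratio of the members was 0.47, and that of all measured genes was -0.04. A log2 ratio of at least 0.5 was seen in 21 members (14.6% of all measured genes) and one of -0.5 or less in 1 (23.2%). The 7099 genes of like signal were more evenly split than all measured genes. Their median was 0.05, with 1191 at 0.5 or more and 951 at -0.5 or less. Past 2-fold, 281 of them were raised and 265 were lowered. Among the 38 members in that range, 16 had a ratio of 0.5 or more and 0 had one of -0.5 or less, with a median of 0.47. Only 2 of the 48, Rrm1 and Timeless, were at least 2-fold higher (3.87% of all measured genes), and 0 were at least 2-fold lower (8.53%). The count past 2-fold was 1 when probe sets of a gene were summarised by their median, which left Timeless at 0.59 (3.29% of all measured genes). It was 4 after quantile (4.94%) or loess (5.04%) normalization and with median-centred ratios (4.35%). With an offset of 50 it was 7 (2.63%). That setting had no background floor, and the offset was added after both arrays were scaled to a common median signal. The array medians were 22.6 (wild-type) and 17.3 (VEGF), so the scaling raised the VEGF array relative to the wild-type array. Scaled to the spike-ins, an alternative chosen after seeing the data, all ratios move up by the same amount. Then 48 of 48 members, the 10 below 0 included, and 89.1% of all measured genes had ratios above 0, and 37 members and 39.0% of all measured genes were at least 2-fold higher. The median was 1.37 for the members and 0.86 for all measured genes. In bulk RNA a larger share of cells in S phase and more message per cell cannot be told apart.

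**Figure D1:**
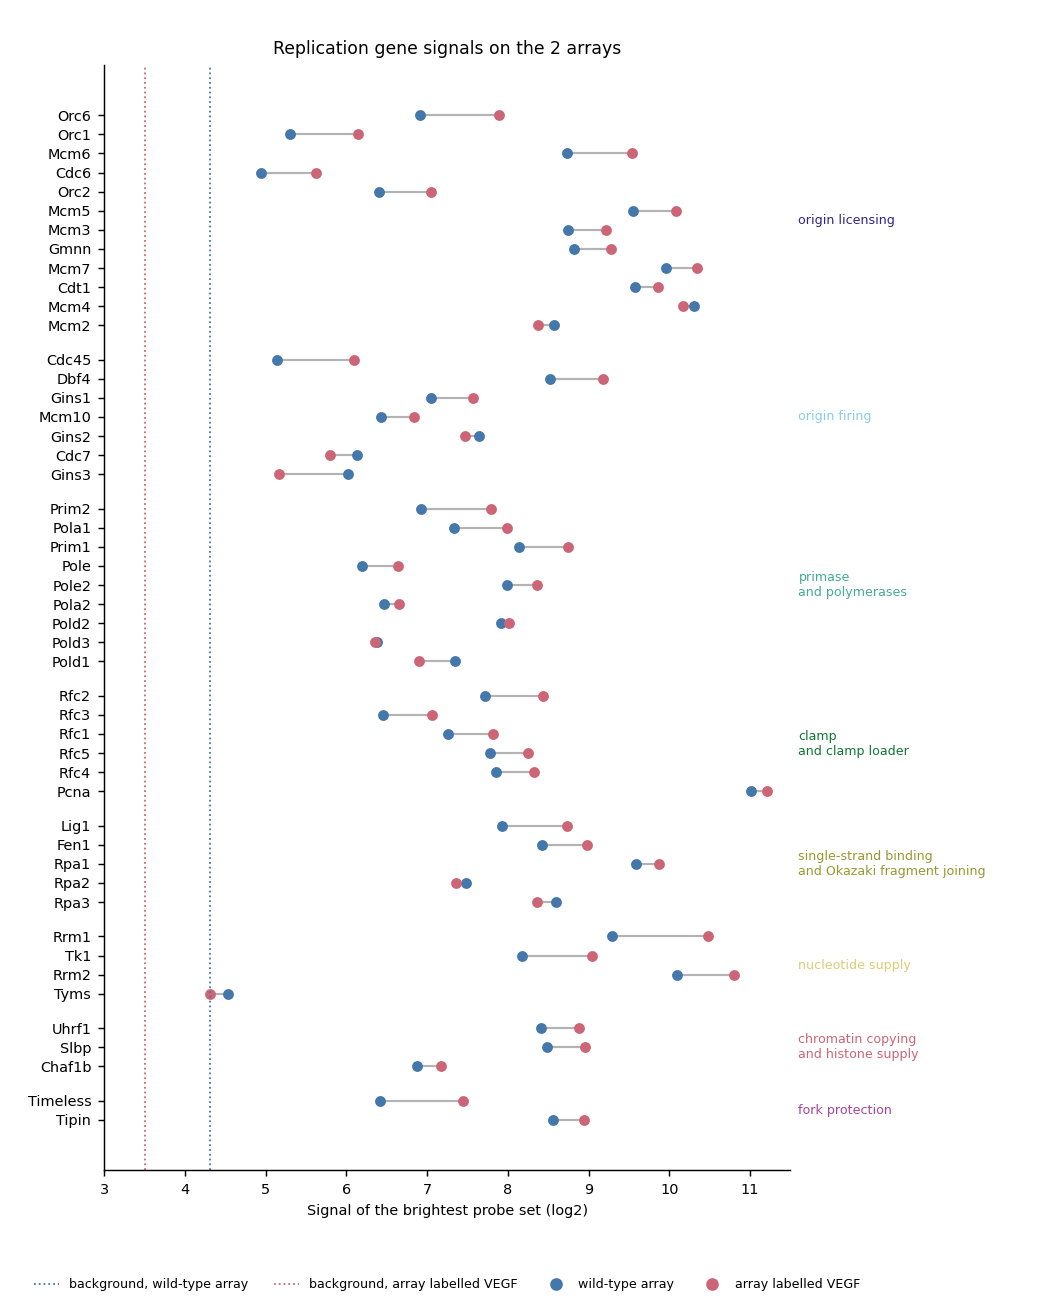
Log2 signal of the brightest probe set of each of 48 replication genes on the wild-type (blue) and VEGF (red) arrays, grouped by role; dotted lines are each array's background, and each point is 1 array. The red point lies to the right for 38 of 48 genes, and Gins3, Pold1 and Cdc7 are the clearest exceptions.

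Without replicates, error was judged from how far probe sets of 1 gene differ. Over 4887 genes with 2 or more probe sets detected on each array, the SD of the log2 ratio of 1 probe set was 0.50, 0.42 and 0.32 for dim, middle and bright genes, split into tertiles. Biological spread between mice or tumours is not part of it. A ratio of over 2 such SDs above 0 was reached by 10 members (6.18% of 11234 genes detected on each array), namely Rrm1, Tk1, Mcm6, Lig1, Timeless, Orc6, Rfc2, Rrm2, Prim2 and Dbf4, and 0 members lay as far below 0 (8.57%). By 1 such SD, 30 members were above 0 (19.6% of those 11234 genes) and 2, Gins3 and Pold1, were below (24.8%). For most members, then, the difference between the arrays was within 2 SDs of probe set error.

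**Figure D2:**
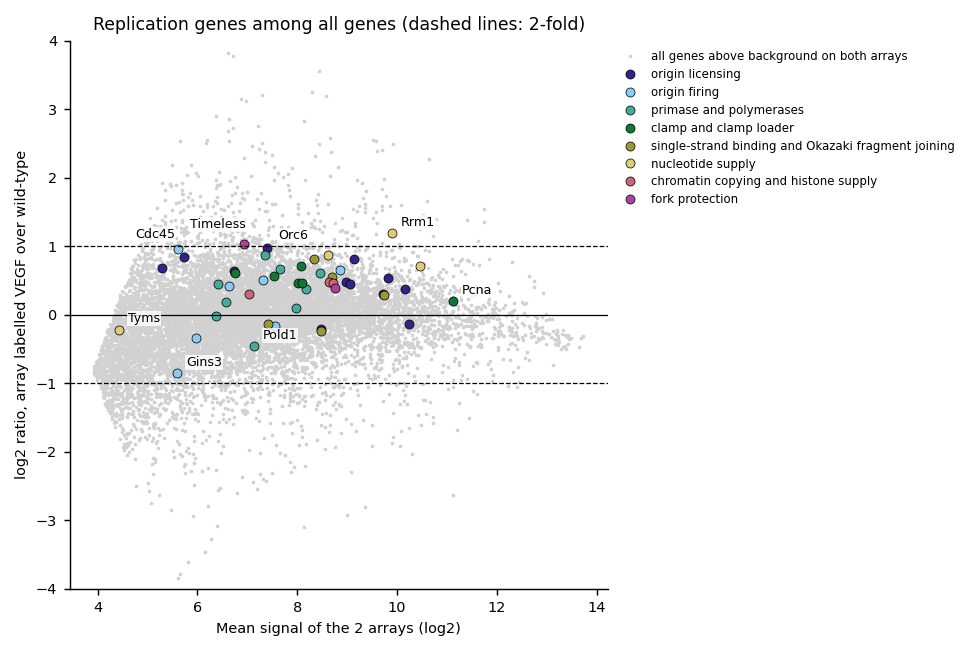
Log2 ratio of the VEGF array over the wild-type array against the mean log2 signal of the 2 arrays; grey points are 11234 genes detected on each array, coloured points the 48 replication genes by role, and dashed lines 2-fold. The coloured points sit mostly between 0 and 1, with Rrm1 and Timeless just past the upper line.

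In origin licensing, 10 of 12 genes had ratios above 0 and the median was 0.50. Orc6, the smallest subunit of the origin recognition complex, had signals of 121 (wild-type) and 237 (VEGF), the order kept below, a log2 ratio of 0.98 that stopped just short of 2-fold. Orc1, the subunit that binds and hydrolyses ATP and recruits Cdc6, had signals of 39.4 and 70.8, and Orc2, another core subunit, 85.0 and 133. All 3 listed subunits were therefore higher, although Orc1 and Orc2 each have a further probe set near 0 (-0.07 and -0.08). Cdc6, an ATPase that takes part in loading the MCM ring onto origins, had low signals of 30.9 and 49.4, a ratio of 0.68. Cdt1, which escorts the MCM ring to the origin, read 760.4 and 933 (0.29), and Gmnn, which encodes geminin, the protein that holds Cdt1 in check, read 452 and 619 (0.45). The loader and its inhibitor were thus both higher on the same array, by amounts that differ by less than the probe set SD of 0.32.

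The 6 subunits of the MCM ring, the core of the replicative helicase, did not read alike. Mcm6 had signals of 425 and 745, a ratio of 0.81, which was the highest of the 6. Mcm5 (749.6 and 1081, ratio 0.53), Mcm3 (429 and 597, ratio 0.48) and Mcm7 (997 and 1297, ratio 0.38) followed. Mcm4 (1271 and 1156, ratio -0.14) and Mcm2 (382 and 331, ratio -0.20) were slightly lower by their brightest probe sets. Those last values turned on the choice of probe set, since the other probe set gave 0.15 for Mcm4 and 0.59 for Mcm2. Mcm3 and Mcm5 were also read differently by their probe sets, with 2 of 5 below 0 for Mcm3 (-1.13 and -0.22) and 1 of 3 for Mcm5 (-0.33, at signals of 26.6 and 21.2). All 6 subunits thus had at least 1 probe set above 0, and 4 of the 6 also had 1 below; the exceptions were Mcm6 and Mcm7.

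In origin firing, 4 of 7 genes had ratios above 0, and the median was 0.41. Cdc45, the helicase cofactor that is limiting for firing, had signals of 35.2 and 68.5, a ratio of 0.96 at low signal. Mcm10, which helps the helicase to start moving, read 86.0 and 115 (0.41). The subunits of the DDK kinase, which switches the MCM ring on by phosphorylation, went opposite ways. Dbf4, the regulatory subunit, had signals of 367 and 579, a ratio of 0.66. Cdc7, the catalytic subunit, read 70.1 and 55.5 by its brightest probe set, a ratio of -0.34, and -1.12 by its other. The GINS complex, which joins the MCM ring and Cdc45 in the active helicase, was also divided. Gins1 read 133 and 189, a ratio of 0.51, and Gins2 199.6 and 178, a ratio of -0.17, with 0.86 from its other probe set. Gins3 read 65.0 and 35.9, a ratio of -0.86, and its other probe set gave -0.11 with signals of 21.7 and 20.1. Both Gins3 probe sets were thus below 0, by different amounts.

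Among the polymerases, 7 of 9 genes had a ratio above 0, and the 3 enzymes differed. All 4 genes of the polymerase alpha and primase complex, which starts each new strand with a short RNA and DNA primer, were above 0 by their brightest probe sets, with a median of 0.63. They were the primase genes Prim2 (122 and 222, ratio 0.87, with -0.04 from a further probe set of like signal, 142 and 137) and Prim1 (283 and 429.8, ratio 0.60) and the polymerase genes Pola1 (161 and 255, ratio 0.67) and Pola2 (88.9 and 101, ratio 0.18). The leading-strand polymerase epsilon was represented by its catalytic gene Pole (73.0 and 99.4, ratio 0.45) and Pole2 (253 and 329, ratio 0.38). Polymerase delta extends the lagging strand. Its catalytic gene Pold1 read 163 and 119, a ratio of -0.46, with 0.22 from the other probe set. Pold2 read 242 and 259 (0.10), and Pold3 read 83.0 and 82.1 (-0.02), with its other probe sets at -0.22 and -1.18. The median of the 3 delta genes was -0.02, and with 2 to 4 genes an enzyme the difference between enzymes was not tested.

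The sliding clamp and its loader had ratios above 0 for 6 of 6 genes (median 0.51). Pcna, the ring that tethers polymerases to DNA, had signals of 2069 and 2372, and its ratio of 0.20 was the smallest of the 6. The 5 loader genes, which open and place the clamp, were closer to each other. Their ratios were 0.71 for Rfc2 (211 and 345), 0.61 for Rfc3 (87.5 and 134), 0.56 for Rfc1, the large subunit (154 and 226), 0.47 for Rfc5 (221 and 305) and 0.47 for Rfc4 (232 and 320.2). Rfc2 was the only loader gene with a probe set below 0, at -0.21.

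Genes that protect and join the lagging strand had 3 of 5 ratios above 0. Lig1, the ligase that seals Okazaki fragments, had signals of 244 and 427, a ratio of 0.81 from its only probe set. Fen1, the nuclease that trims the flap before ligation, read 344 and 505, a ratio of 0.55, and its other probe set gave 1.09. The 3 subunits of RPA, which coats single-stranded DNA, lay around 0. Rpa1, the large subunit, read 773 and 939 (0.28), Rpa2 read 179 and 164 (-0.13, with 0.76 from its other probe set), and Rpa3, the smallest, read 387 and 329 (-0.24). By the brightest probe sets the ratios of both joining enzymes lay above those of the 3 RPA subunits, a difference that was not tested.

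The supply of deoxynucleotides held the highest ratio of all members. Rrm1, the large subunit of ribonucleotide reductase, had signals of 627 and 1432, 2.28-fold, and its second detected probe set (113 and 307) gave 1.43 on the log2 scale. Rrm2, the small subunit that is made in S phase, read 1092 and 1792, a ratio of 0.71, while its other probe sets gave 0.995 and 1.16. Tk1, the salvage thymidine kinase, read 289.5 and 529, a ratio of 0.87. Both reductase subunits and the salvage kinase were thus higher in every detected probe set. Tyms, the enzyme of new thymidylate synthesis, could hardly be read: 1 of its 4 probe sets was above background on both arrays, with signals of 23.1 and 19.9 against backgrounds of 19.8 and 11.3, so its ratio of -0.22 says little.

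Genes that copy chromatin with the DNA had 3 of 3 measured ratios above 0. Uhrf1, which brings the maintenance methyltransferase to newly copied DNA, read 339 and 472, a ratio of 0.48. Slbp, which binds histone messages and is needed to process and translate them, read 359.5 and 497, a ratio of 0.47, although its dimmer probe set gave -0.99. Chaf1b, a subunit of the assembly factor that places new histones, read 117 and 144 (0.30). Its second probe set passed background on the wild-type array alone (20.3 against 8.35). The fork protection pair, which keeps the helicase and polymerases together, was above 0 for both genes. Timeless read 85.8 and 175, 2.04-fold, but its other probe set, of like signal, read 88.2 and 97.5, a ratio of 0.15. Its partner Tipin read 378 and 493 (0.38).

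Of the 105 member probe sets, 87 were above background on both arrays, 2 on 1 array only with a bound, and 16 gave no fold. Among the 87, 65 were above 0, against 44.5% of all 19377 such probe sets, and the median was 0.45 against -0.07. At least 2-fold higher were 5 (3.11% of all) and at least 2-fold lower were 3 (8.09%). For 28 members at least 2 probe sets could be compared. They all went the same way for 16 members, 13 above 0 and 3 (Cdc7, Gins3 and Pold3) below, and in opposite ways for 12. The share in agreement was 57.1%, beside 53.7% among all 4887 genes with 2 or more.

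**Figure D3:**
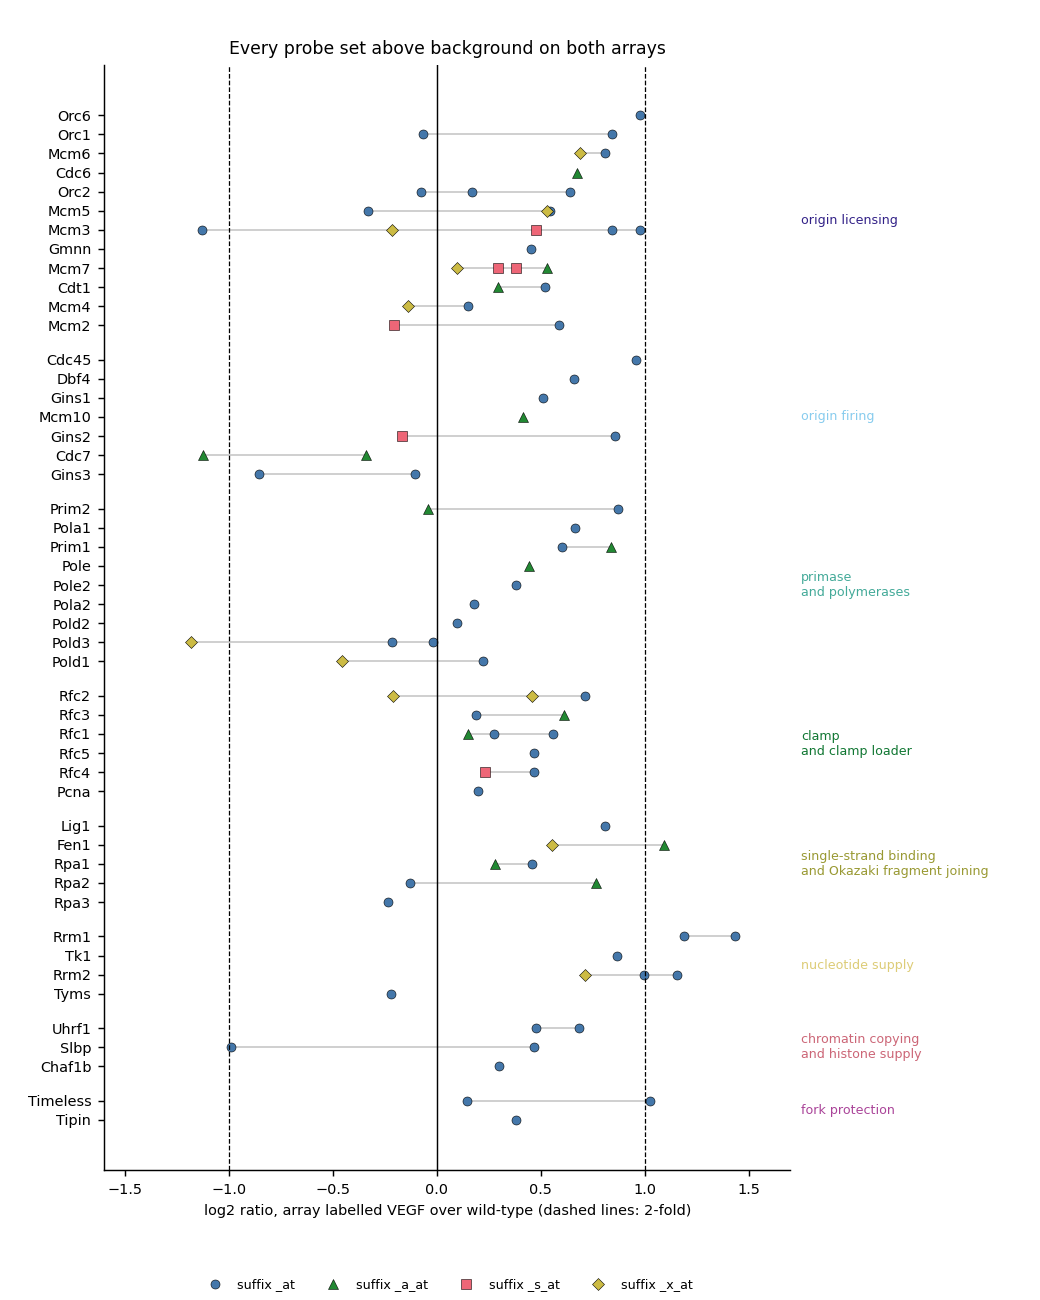
Log2 ratio of the VEGF array over the wild-type array for each of the 87 member probe sets above background on both arrays, by gene and role; marker shape gives the suffix of the probe set and grey lines join probe sets of 1 gene. Mcm3 spans -1.13 to 0.98 and Slbp -0.99 to 0.47, while Rrm1, Rrm2, Fen1, Prim1, Rfc1 and Mcm7 stay above 0 throughout.

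The suffix of a probe set tells what its probes can bind: _at and _a_at sets match 1 gene, while _s_at and _x_at sets can also bind other transcripts. For 13 members both kinds were above background on both arrays. The ratio from the gene-specific sets was the higher in 12 of these 13, with a median difference of -0.54 (shared minus specific), and Mcm5 was the exception. In all 1765 genes with both kinds the specific sets were higher in 60.4%, with a median difference of -0.11, and in the 1275 such genes within the members' signal range in 59.8%. Among mitosis genes with both kinds they were higher in 7 of 8 (median difference -0.19), and among the other replication genes described below in 4 of 9 (0.07). No difference between these shares was tested. The specific sets of the 13 members had a median ratio of 0.59 and the shared sets 0.13. Gins2 (0.86 by the specific set, -0.17 by the shared), Mcm2 (0.59 and -0.20), Mcm4 (0.15 and -0.14) and Pold1 (0.22 and -0.46) changed sign with the kind of probe set. Shared sets were the brightest for 9 members and so gave the values above for Mcm2, Mcm3, Mcm4, Mcm5, Mcm7, Gins2, Pold1, Fen1 and Rrm2. Without them, 42 of 48 members were above 0, with a median of 0.52, against 48.6% of 11828 measured genes, with a median of -0.02. Fen1 (1.09) joined Rrm1 and Timeless past 2-fold, which made 3 of 48 members, beside 480 of those 11828 genes.

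**Figure D4:**
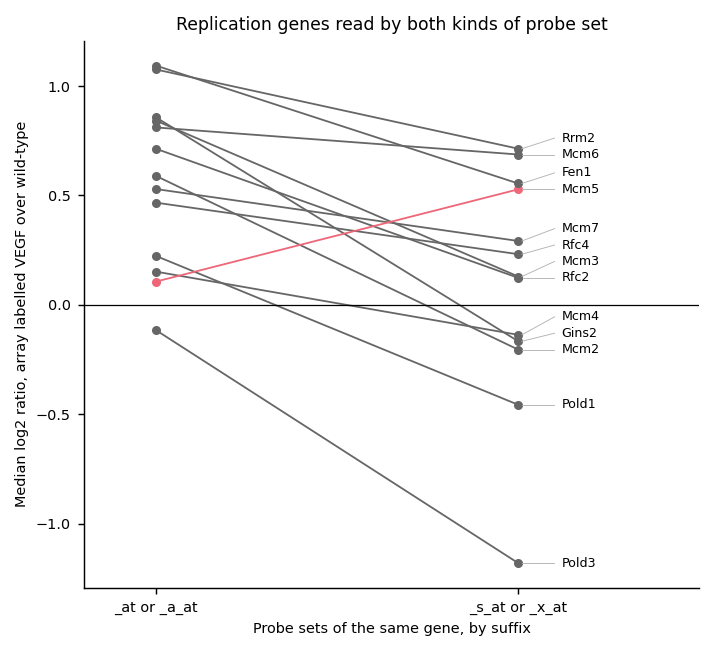
Median log2 ratio of the VEGF array over the wild-type array from gene-specific probe sets (left) and from probe sets that can bind several transcripts (right) for the 13 members with both; each line is 1 gene. Lines fall from left to right for 12 genes (grey), and Mcm5 (red) climbs.

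The other replication genes formed a further list of 58 that holds none of the members. Of 54 measured, 40 had a ratio above 0, 2 were higher and 0 lower by at least 2-fold, and the median was 0.35. Tonsl, which helps to repair broken forks, was 2.07-fold higher (37.1 and 76.8), and Asf1b, a histone chaperone of S phase, 2.01-fold (82.9 and 167). Samhd1, which breaks down deoxynucleotides, had a ratio of 0.98 by its brightest probe set and -0.59 by the lowest of its others. Cdca5, which encodes the cohesion factor sororin, read 186 and 351 (0.91), and Donson, a fork gene, 84.3 and 141 (0.74). Polg2, a subunit of the mitochondrial polymerase, was the lowest of the list at -0.84 (99.1 and 55.4). Rrm2b, the reductase subunit used outside S phase, read 68.4 and 102 (0.58), in the same direction as Rrm1 and Rrm2. Gins4, the remaining GINS subunit, read 272 and 290.2 (0.09).

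Regulators of the step from G1 into S were less uniform, with 20 of 31 above 0 and a median of 0.19. The cyclin gene Ccnd1 (2762 and 4875, ratio 0.82), its kinase partner Cdk6 (349.7 and 626, ratio 0.84) and the later cyclin gene Ccne1 (141 and 252, ratio 0.84) were higher. So was Skp2, which targets a cell cycle inhibitor for destruction (55.0 and 93.2, ratio 0.76). The same held for 2 inhibitor genes, Cdkn2a (354 and 719, 2.03-fold) and Cdkn1c (24.1 and 40.2, ratio 0.74). The other Cdkn genes listed were mixed. Cdkn1b (-0.60, with 0.02 from its other probe set), Cdkn2b (-0.23) and Cdkn2d (-0.20) were below 0, and Cdkn1a (0.19) and Cdkn2c (0.19) were above. Ccne2 (-0.21) and the kinase gene Cdk2 (-0.39) were also below 0. For Cdkn1c the wild-type signal was near that array's background of 19.8. The activator genes of the E2F family were dim: E2f1 read 51.2 and 46.7 (-0.13, with 0.39 from its other probe set), E2f2 read 34.6 and 22.8 (-0.60) and E2f3 read 59.0 and 70.2 (0.25, with -0.27 from its other probe set). The sign for E2f1 and E2f3 thus turned on the probe set. Mitosis genes had 28 of 29 ratios above 0 and a median of 0.58, with Anln, of cytokinesis (367 and 823), Nek2, of centrosomes (113 and 253), and Kif23, a kinesin of the midzone (155 and 321), at least 2-fold higher. Bub1 and Cdk1 had ratios of 0.98 and 0.95, and Pttg1, which encodes securin, 0.86, with -0.63 and 1.15 from its other probe sets. The 3 lists and the members share both arrays, so their medians are set side by side as descriptions only, and no difference between them was tested.

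**Figure D5:**
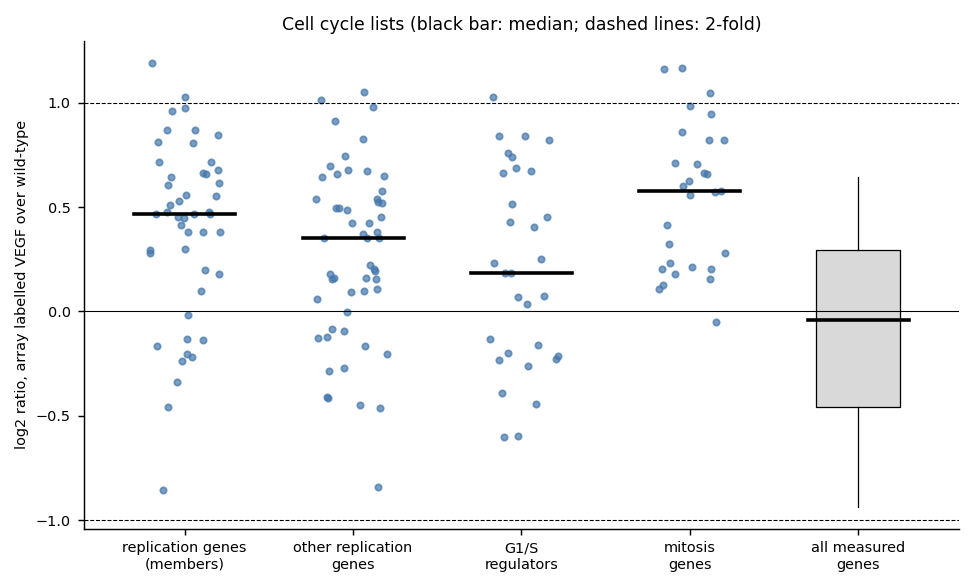
Log2 ratio of the VEGF array over the wild-type array for the 48 members, 54 other replication genes, 31 G1/S regulators and 29 mitosis genes (points, 1 per gene, spread sideways for clarity; black bars, medians) beside all 12199 measured genes (box, 25th to 75th percentile; whiskers, 10th to 90th). The medians are 0.47, 0.35, 0.19 and 0.58 for the 4 lists and -0.04 for all genes, whose 90th percentile is 0.64.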

How the data were processed

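CD34-positive tumour epithelial cells were profiled on 2 Affymetrix arrays, 1 per genotype. The deposited values are log2 signals per probe set, and the submitters' processing notes name MAS5, without a version; the sources used here give no scaling target. Signals were floored on each array at the 90th percentile of 80 olfactory and vomeronasal receptor probe sets (19.8 for wild-type, 11.3 for VEGF). A gene was read by its brightest probe set (highest mean of both log2 signals) and needed 1 array above background. Where only 1 array passed, the gene counted as measured only if its floored signal was the higher on that array. Of 45101 probe sets, 34958 map to 1 gene in the platform annotation, 932 to several and 9211 to none; 64 are controls. Each member and, from each further list, the 6 largest ratios in size above background on both arrays were named. Rrm2b, Gins4, Ccne2, Cdk2, the E2F genes and the other Cdkn genes were chosen after their values were seen. The members and lists were chosen with earlier results of these data known. With 1 array per group no test was made, and the number of arrays limits the precision. Calculations used Python 3.11.15, pandas 2.3.3 and statsmodels 0.14.6 and were tested on simulated data. In all, 10 alternatives were planned and 1, scaling to the spike-ins, was added after seeing the data.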

Additional observations from a re-analysis of the deposited data

How the results depend on the processing

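Across the 10 other settings chosen at the outset the median ratio of the members stayed above 0, between 0.40 and 0.69, and 38 to 46 of 48 members were above 0 (35 of 43 with the stricter filter on signal), against 44.2% to 65.9% of all genes, where the 46 and the 65.9% both belong to the offset; 0 were at least 2-fold lower under any of them. The count at least 2-fold higher, 2 as reported, was 4 after quantile normalization, after loess normalization and with median-centred ratios, 7 with the offset of 50, and 1 with the median over probe sets. The median was 0.69 with the offset and 0.40 with the median over probe sets. The setting with the offset first scaled both arrays to a common median signal, which raised the VEGF array relative to the wild-type array. Its values are therefore not those of an offset alone. It also moved the median of all genes from -0.04 to 0.10, and relative to that the members lay at 0.59. Scaled to the spike-ins, an alternative chosen after seeing the data, 48 members were above 0, 37 at least 2-fold higher, and the median was 1.37, while the median of all genes was 0.86, which leaves 0.51 between them, as before. Among all measured genes the split of those at least 2-fold apart varied more, with 472 higher and 1041 lower as deposited, 623 and 596 after quantile normalization, 638 and 571 after loess, 531 and 936 with median-centred ratios, 472 and 624 with the higher background on both arrays, 451 and 702 with each array's median as background, 479 and 76 with the offset, 1670 and 2786 without a background filter, 297 and 298 with the stricter filter, and 4755 and 105 scaled to the spike-ins. Counts were 403 and 1062 with the median over probe sets, and 480 and 1002 without the shared probe sets. The settings that changed only the background or the filter on signal left the ratio of every member they measured unchanged. Its brightest probe set lay above background in each of them, so its sign could not change there. The changes of sign counted next came from the other settings. Of 475 member values under the 10 settings chosen at the outset, 23 had another sign, in 11 members: Cdc7, Chaf1b, Gins2, Mcm2, Mcm4, Pold1, Pold3, Rpa2, Rpa3, Slbp and Tyms. The other 36 members above 0 stayed above 0 under every alternative that gave a value. The cause of these shifts was not tested. No paired analysis was possible because each genotype has 1 array. Orc1, Cdc6, Cdc45, Cdc7, Gins3, Pole, Pold3 and Tyms lay in the lowest tertile of signal, where the probe set SD was 0.50.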
